A study of Homo sapiens with 6 samples.

Results

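The translation initiation factors, the eIF proteins that bring the ribosome to the start codon of an mRNA, were followed in Capan-1 cells after GNE was silenced. Members were all genes whose symbol in the array's annotation starts with EIF and a number from 1 to 6, without the eIF2alpha kinases (EIF2AK), the eIF4E-binding proteins (EIF4EBP) and pseudogenes. Of 47 such symbols, 45 are protein coding, and 40 of these had a probe set assigned to them alone with a mean log2 value above 4 over the 6 arrays. The 40 were set against 10862 genes read in the same way, with 1 probe set for each gene (the highest mean, and a cross-hybridising _x_at probe set only where no other existed). EIF1AY, EIF3C and EIF4A2 had probe sets of their own that did not read above 4, and EIF4A1 and EIF3CL had only probe sets shared with other genes. The dimmest member was EIF5A2 with a mean of 5.58, followed by EIF4ENIF1 with 7.71, and among the genes whose own probe sets failed this limit the brightest was EIF3C with 3.21. The 2 non-coding symbols, EIF1B-AS1 and EIF3J-DT, were kept apart, and EIF3J-DT, which passes the rule by its letters, is described beside EIF3J.

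Capan-1 is an established human pancreatic carcinoma line. GNE is the enzyme UDP-GlcNAc 2-epimerase/ManNAc kinase, which starts the synthesis of sialic acid, and the labels list 3 cultures given an siRNA against GNE (siGNE) and 3 cultures given allStar siRNA (control), with titles numbered 1 to 3 in each group. Both groups had 2 rounds of transfection with a gap of 48 h. RNA was taken 72 h after the later round, and 300 ng of total RNA was labelled for each Affymetrix array. The siRNA sequence is not given in the sources used here, all arrays are of a single line, and whether the numbered cultures were grown separately is not stated, so p-values measure the spread between these arrays.

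Initiation begins when eIF2, carrying GTP and the initiator tRNA, joins eIF1, eIF1A, eIF3 and eIF5 on the small ribosomal subunit. The eIF4 proteins bind the cap of the mRNA, unwind its leader and load it onto that subunit, which scans to the start codon, where eIF5 triggers GTP hydrolysis by eIF2 and eIF5B joins the large subunit. eIF2B recharges eIF2 with GTP, and stress kinases slow initiation in tumour cells by phosphorylating eIF2alpha, which blocks eIF2B.

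The targeted gene was read first. GNE had log2 values of 8.39, 9.86 and 9.57 in siGNE cells, against 11.12, 11.47 and 10.86 in control cells. All siGNE arrays lay below all control arrays. The difference was -1.88 ± 0.29 (SE, n = 3 pairs), that is 27.2% of the control level. SEs here and below are limma's moderated ones. They draw on the variance of all tested probe sets, not on the spread of the 3 pairs alone. Limma with the replicate number as a block gave an adjusted p of 0.0348, and 0.131 without the block. An exact two-sided permutation test gave 0.1, the smallest value that 3 arrays against 3 allow. Of the markers of ductal carcinoma cells, 8 of 8 read above 4, with group means from 10.56 to 15.41 in siGNE cells and from 10.72 to 15.28 in control cells. Of the markers of other cells, 1 of 6 fibroblast genes (COL1A1, mean 8.74 in siGNE cells and 8.03 in control cells), 1 of 3 leukocyte genes (LYZ, mean 11.10 in siGNE cells and 11.07 in control cells) and 0 of 3 endothelial genes did. The 3' minus 5' difference of the ACTB control probe sets, a sign of RNA integrity, was 1.48, 1.25 and 0.49 in siGNE cells, against 1.08, 1.44 and 0.53 in control cells. It was low on the number 3 array of both groups, and its part in the results was not tested.

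Most initiation factor transcripts differed little between siGNE and control cells. In RNA from whole cultures, fewer cells with a transcript and less of it per cell cannot be told apart. Of the 40 genes, 1 fell (EIF2D) and 0 rose at an adjusted p under 0.05 in limma with the replicate block, a share of 2.5%. Of all genes 9.85% were called, 4.12% higher and 5.74% lower. At an unadjusted p under 0.05 there were 10 initiation factors, 5 higher and 5 lower, or 25% against 32.4% of all genes. At an adjusted p under 0.1 there were 7, of which 3 were higher and 4 lower, or 17.5% against 22.5% of all genes (9.28% higher and 13.2% lower). Without the block limma called 0 of the 40, against 0.046% of all genes, and 3 (7.5%) had an unadjusted p under 0.05, against 16.2% of all genes. The count moved with the variance model: with an intensity trend limma called 9 of the 40 (22.5%), 5 higher and 4 lower, against 15.7% of all genes.

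The siGNE minus control differences of the 40 genes ran from -0.87 (EIF5A2) to 0.43 (EIF2S2) on the log2 scale, with a median of 0.0053 and quartiles of -0.09 and 0.13. Over all genes the median was -0.02 and the quartiles were -0.22 and 0.16. A difference beyond 0.5 was measured for 2 initiation factors (EIF5A2 and EIF2D), or 5%, against 14.0% of all genes. For 33 of the 40 (82.5%) the 95% interval of the difference lay within 1.5-fold in either direction, against 66.0% of all genes. The siGNE and control arrays did not overlap for 6 factors, 15% against 23.2% of all genes (9.38% above control and 13.8% below). EIF1, EIF5, EIF2S2 and EIF3J lay above control on every array and EIF3F and EIF5A2 below. The sign was the same in all 3 pairs for 12 factors that were higher (27.0% of all genes were) and 9 that were lower (30.8% of all genes were), and the other 19 had mixed signs.

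**Figure D1:**
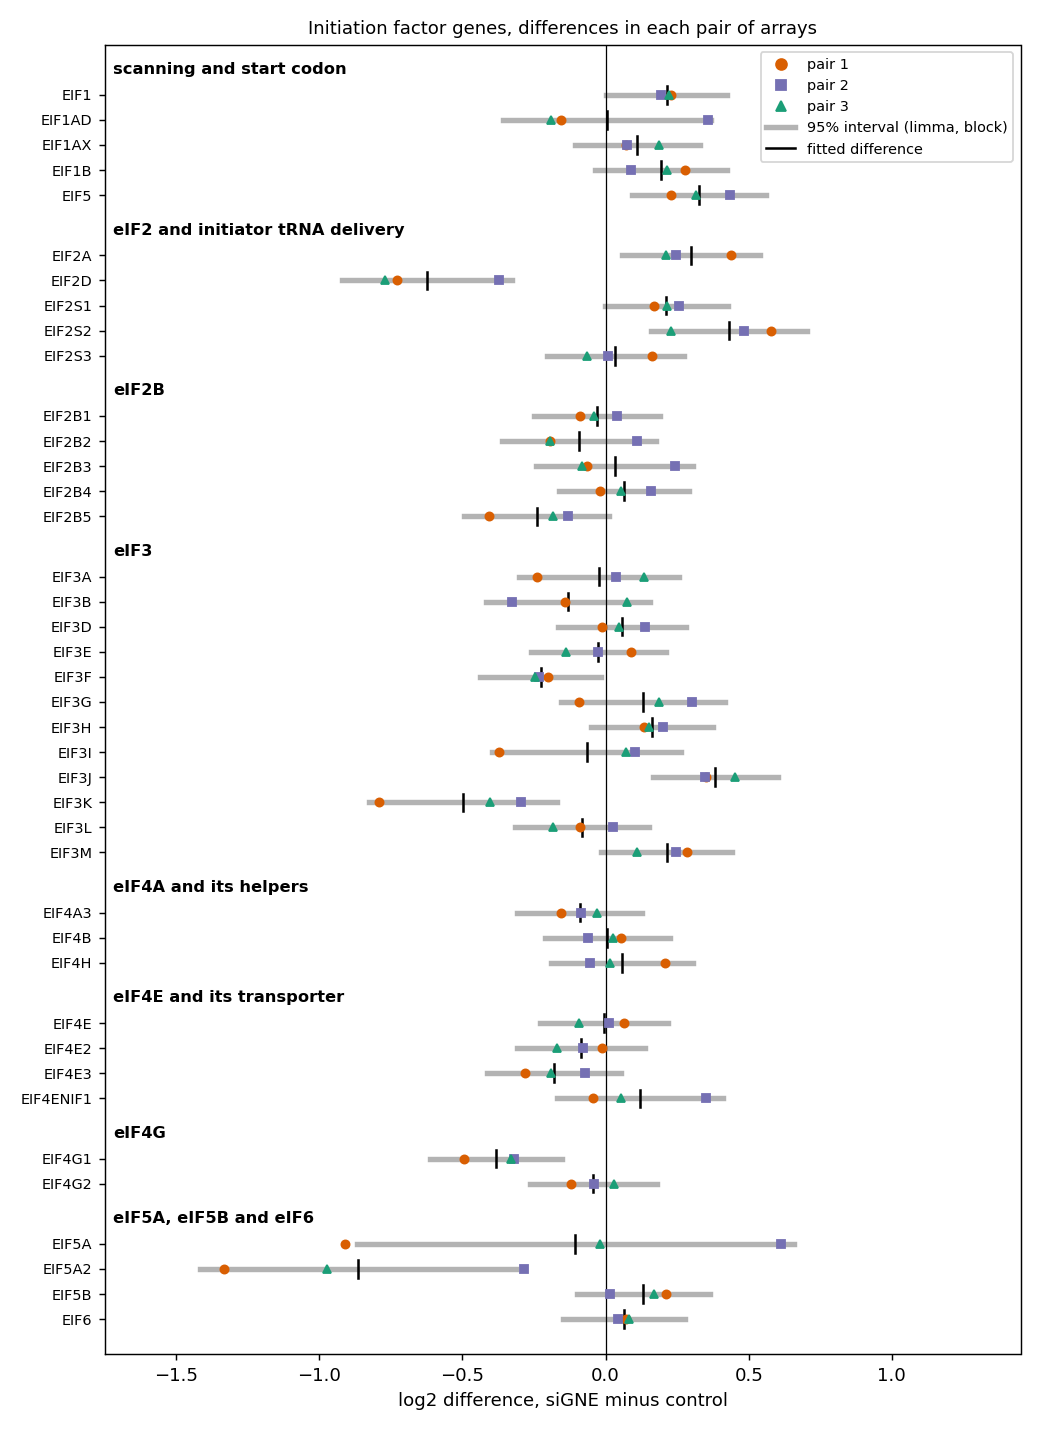
Differences of the 40 initiation factor genes, siGNE minus control on the log2 scale (x axis), ordered by role. Points are the 3 pairs of arrays, black bars the fitted differences and grey bars the 95% intervals from limma. EIF2D lies at -0.62 and EIF5A2 at -0.87, EIF5A has pairs on both sides of 0, and most intervals include 0.

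**Figure D2:**
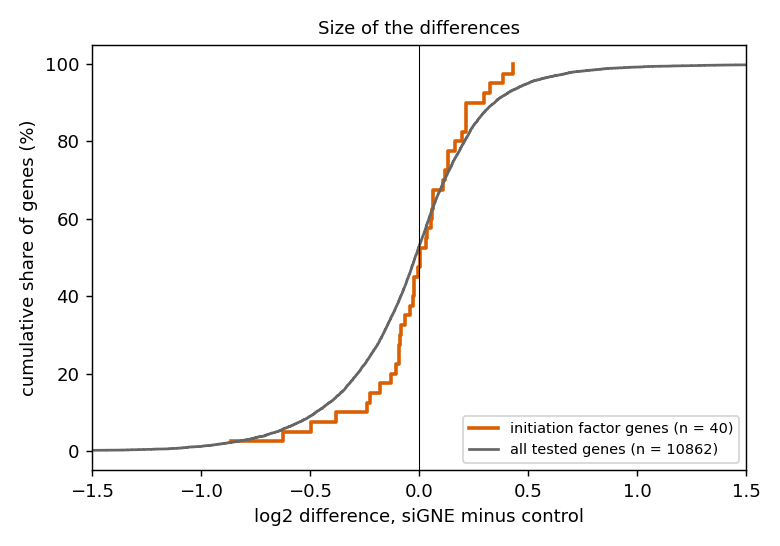
Cumulative share of genes (y axis, %) by the siGNE minus control difference on the log2 scale (x axis), for 40 initiation factor genes and 10862 tested genes. The curve of the initiation factors is steeper around 0, with quartiles of -0.09 and 0.13 against -0.22 and 0.16, and the x axis ends at 1.5 either way. The sets were not matched for brightness.

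Many mRNAs of the translation machinery start with a C followed by a run of pyrimidines, the 5' terminal oligopyrimidine (TOP) motif through which mTORC1 and LARP1 set their translation. RefSeq promoter windows (GRCh38.p14) were at hand for 34 of the 40 genes. EIF2S2, EIF3A, EIF3E, EIF3G, EIF3H and EIF3L had none, so the counts and medians for motifs leave them out. The annotated starts, 48 windows for these 34 genes, were searched on the transcribed strand for C at the start base with C or T at the next 4 bases. A gene was counted where any of its windows matched, and which start these cells use was not measured. Such a start was found for 8 of the 34 genes (23.5%), against 71.9% of 64 cytosolic ribosomal protein genes and 7.50% of tested genes with a window. By window the shares were 16.7%, 58.2% and 5.23%. The 8 starts are shown because the factors that share this feature include EIF2D, the called gene, and EIF3K. Each line gives 30 bases before the start and 20 from it, 5' to 3' on the gene's own strand, with the pyrimidine run from the start base in capitals.
EIF2D, chr1:206612446-206612495, minus strand: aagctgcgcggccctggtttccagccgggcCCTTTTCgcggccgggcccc
EIF3K, chr19:38619158-38619207, plus strand: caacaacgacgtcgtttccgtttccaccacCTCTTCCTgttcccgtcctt
EIF3F, chr11:7987307-7987356, plus strand: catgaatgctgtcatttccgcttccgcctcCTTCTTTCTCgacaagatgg
EIF4B, chr12:53006426-53006475, plus strand: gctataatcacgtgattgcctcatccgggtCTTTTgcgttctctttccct
EIF2S3, chrX:24054926-24054975, plus strand: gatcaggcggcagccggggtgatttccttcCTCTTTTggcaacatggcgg
EIF3D, chr22:36529147-36529196, minus strand: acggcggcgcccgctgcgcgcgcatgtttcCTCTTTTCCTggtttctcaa
EIF3M, chr11:32583801-32583850, plus strand: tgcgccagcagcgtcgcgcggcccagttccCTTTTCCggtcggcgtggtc
EIF2A, chr3:150546757-150546806, plus strand: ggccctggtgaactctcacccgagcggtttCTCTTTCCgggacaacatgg

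The 8 genes with such a start did not move as a block. Their differences on the log2 scale ran from -0.62 (EIF2D) and -0.50 (EIF3K) through -0.23 (EIF3F), 0.01 (EIF4B), 0.03 (EIF2S3), 0.06 (EIF3D) and 0.21 (EIF3M) to 0.30 (EIF2A). Their median was 0.02, and that of the 26 genes without it was -0.00056. In the whole window, from 250 bases before to 50 after the start, CACGTG, the E-box that MYC binds, occurred in 10 of the 34 genes (29.4%), against 13.0% of tested genes and 8.77% of all genes with a window. Of those 10, 5 read lower in every pair (EIF3F, EIF3K, EIF4A3, EIF4G1 and EIF5A2), against 30.8% of all genes. EIF1B alone read higher in every pair, against 27.0% of all genes, and 4 had mixed signs. TGACNNNGC, the core of the antioxidant response element, occurred in 9 (26.5%, against 19.9% and 16.1%), and TGATGNAA, the composite site that ATF4 and C/EBP proteins bind, in EIF4E3 alone (2.94%, against 2.72% and 4.46%). Both strands were searched for these motifs. Of the 9 genes with TGACNNNGC, 4 read higher in every pair (EIF1AX, EIF2A, EIF3J and EIF5), against 27.0% of all genes. EIF3K, EIF4G1 and EIF5A2 read lower in every pair, against 30.8% of all genes, and EIF2B1 and EIF5A had mixed signs. EIF4G1, EIF5A2 and EIF3K hold both CACGTG and TGACNNNGC in their windows.

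Of the 5 genes grouped here under scanning and start codon choice, with EIF1AD among them by its relation to eIF1A, 0 passed the test. Their differences had a median of 0.19 and ran from 0.0044 (EIF1AD) to 0.33 (EIF5), and 4 of the 5 were higher in every pair, against 27.0% of all genes. EIF5, the GTPase-activating protein of eIF2, had log2 values of 14.47, 14.52 and 14.54 in siGNE cells, against 14.24, 14.08 and 14.22 in control cells. Every siGNE array was above every control array, and the difference was 0.33 ± 0.09 (SE, limma adjusted p = 0.0845). EIF1, which keeps the scanning ribosome open and rejects poor start codons, had 16.09, 16.05 and 16.04 in siGNE cells, against 15.86, 15.86 and 15.82 in control cells. Here too the groups stood apart, by 0.21 ± 0.08 (SE, limma adjusted p = 0.154), close to the arrays' highest values of 16.16 to 16.34. EIF1AX, the X-linked eIF1A gene, differed by 0.11 ± 0.08 (SE) on the probe set used and by 0.17, -0.05 and -0.44 on the others. EIF1B, a close relative of EIF1, differed by 0.19 ± 0.09 (SE), and the groups overlapped for EIF1AX and EIF1B. EIF1AD, a nuclear protein related to eIF1A by its domain, was higher in pair 2 and lower in pairs 1 and 3.

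Among eIF2 and the proteins that deliver the initiator tRNA, EIF2D fell and EIF2S2 gave the highest difference of all 40 members. EIF2D, which can place initiator tRNA on the small subunit without GTP and helps to clear tRNA and mRNA from it after termination, had log2 values of 8.50, 9.12 and 8.12 in siGNE cells, against 9.23, 9.49 and 8.89 in control cells. It was lower in every pair, although the second siGNE array read above the third control array, so that the groups overlapped. The difference was -0.62 ± 0.11 (SE, 95% interval -0.92 to -0.33), that is 64.9% of the control level (limma with the replicate block, adjusted p = 0.0431). This call was lost in limma without the block (adjusted p = 0.397). With dim probe sets included (0.239), or without pair 1, 2 or 3 (0.123, 0.125 and 0.171), limma called 0 probe sets of any gene, and the EIF2D difference without a pair was -0.57, -0.75 and -0.55.

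EIF2S2 encodes eIF2beta, the subunit of eIF2 that contacts eIF5 and eIF2B. Its values were 13.42, 13.32 and 13.10 in siGNE cells, against 12.84, 12.84 and 12.87 in control cells. The siGNE arrays were all above control and more spread out, and the difference of 0.43 ± 0.11 (SE) did not pass the test (limma adjusted p = 0.0682). The other EIF2S2 probe set lay on the opposite side, with a log2 difference of -0.36. EIF2S1, the eIF2alpha subunit that the stress kinases phosphorylate, was higher in all pairs by 0.21 ± 0.08 (SE), and EIF2S3, the eIF2gamma subunit that binds GTP and the initiator tRNA, differed by 0.03 ± 0.09 (SE). EIF2A, an unrelated single protein that can bring initiator tRNA to some mRNAs, was higher in all pairs by 0.30 ± 0.09 (SE, limma adjusted p = 0.107).

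The 5 subunits of eIF2B stayed within -0.24 and 0.07 on the log2 scale, with a median difference of -0.03 and 0 of 5 called. EIF2B5, the catalytic epsilon subunit, had 9.09, 9.41 and 8.99 in siGNE cells, against 9.50, 9.54 and 9.18 in control cells. It was the only subunit lower in all pairs, the groups overlapped, and the difference was -0.24 ± 0.10 (SE, limma adjusted p = 0.173). EIF2B2, the beta subunit of the regulatory core, had 9.68, 9.79 and 9.04 in siGNE cells, against 9.87, 9.68 and 9.23 in control cells. It was lower in pairs 1 and 3 and higher in pair 2, with a difference of -0.09 ± 0.10 (SE). EIF2B1 (alpha, which senses phosphorylated eIF2) differed by -0.03, EIF2B3 (gamma) by 0.03 and EIF2B4 (delta) by 0.07.

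The 12 measured subunits of eIF3, the scaffold that holds the small subunit, the mRNA and the other factors together, had a median difference of -0.02 and 0 calls, but individual subunits lay on either side. EIF3J, a loosely bound subunit that lies in the decoding region of the small subunit, had 13.59, 13.46 and 13.26 in siGNE cells, against 13.24, 13.11 and 12.81 in control cells. All siGNE arrays read above all control arrays, and the difference was 0.38 ± 0.08 (SE, limma adjusted p = 0.0574). Its second probe set gave 0.53 and passed the test (limma adjusted p = 0.0376). EIF3J-DT, the divergent non-coding transcript next to EIF3J, had 9.29, 9.24 and 8.73 in siGNE cells, against 8.56, 8.85 and 8.43 in control cells. It was higher in every pair with overlapping groups, by 0.47 ± 0.12 (SE, limma adjusted p = 0.0691).

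EIF3K, a small subunit that pairs with EIF3L outside the core of eIF3, went the other way. It had 12.56, 13.01 and 12.46 in siGNE cells, against 13.36, 13.30 and 12.86 in control cells. EIF3K read lower in every pair, with the second siGNE array above the third control array, and the difference was -0.50 ± 0.13 (SE, limma adjusted p = 0.0738). Its 3 probe sets gave -0.57, -0.50 and -0.47. EIF3F, which carries an MPN domain, had 14.02, 14.14 and 13.94 in siGNE cells, against 14.22, 14.38 and 14.19 in control cells. All its siGNE arrays lay below control, by -0.23 ± 0.08 (SE, limma adjusted p = 0.140). EIF3M was higher in all pairs by 0.21 and EIF3H, the other MPN subunit, by 0.16.

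The other 7 subunits gave differences from -0.13 to 0.13 on the log2 scale. EIF3A, the largest subunit, differed by -0.02 and EIF3B, which bears an RNA recognition motif and a propeller domain, by -0.13. EIF3D, which can bind the cap of some mRNAs, differed by 0.06, EIF3E by -0.02 and EIF3G, which crosslinks to the mRNA near its entry, by 0.13. EIF3I, a WD-repeat subunit, differed by -0.07 and EIF3L by -0.08. None of these 7 had the same sign in all pairs on the probe set used. The other probe sets of EIF3A gave -0.23 and -0.48, both lower in every pair. Those of EIF3B gave -0.18 and -0.13, both lower in every pair, and 0.19 with mixed signs. That of EIF3E gave -0.09 with mixed signs, and none of these other probe sets was called.

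**Figure D3:**
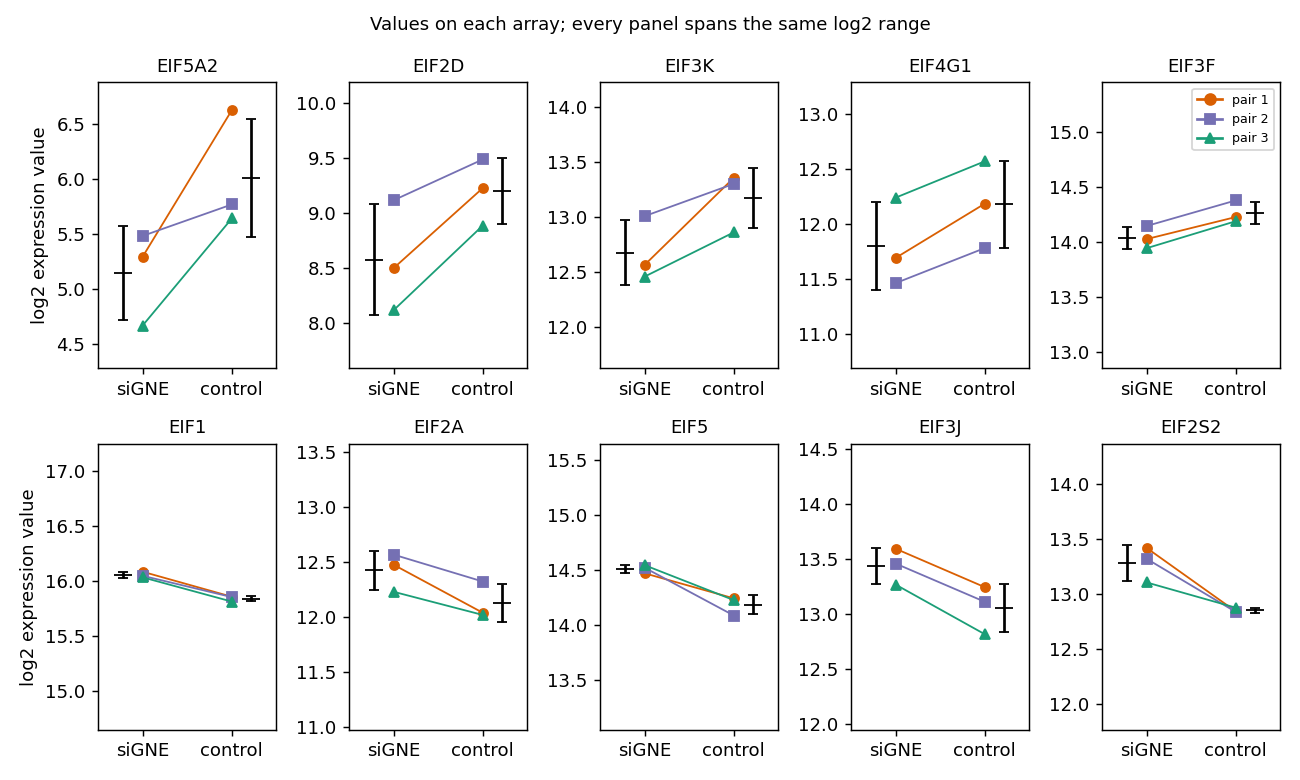
Log2 values on each array (y axis) for the 10 initiation factors with an unadjusted p under 0.05 in limma with the block, ordered by difference. The siGNE arrays are left of control arrays, with lines joining arrays of the same number. Black bars are group means with SD (n = 3 each), and every panel spans the same log2 range. EIF2D reads 8.50, 9.12 and 8.12 in siGNE cells and 9.23, 9.49 and 8.89 in control cells, lower in siGNE cells on every line.

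Of the eIF4A helicases and their helpers, 3 genes were measured, EIF4A3, EIF4B and EIF4H, without EIF4A1 and EIF4A2, and their differences ran from -0.09 to 0.06 with 0 called. EIF4A3, an eIF4A relative that acts in the exon junction complex, had 12.01, 11.97 and 11.90 in siGNE cells, against 12.16, 12.06 and 11.93 in control cells. All pairs were lower by a small amount (-0.09 ± 0.08, SE) and the groups overlapped. EIF4H, which stimulates eIF4A, had 13.33, 13.10 and 13.20 in siGNE cells, against 13.12, 13.15 and 13.18 in control cells. The first siGNE array stood above the other 5, the groups overlapped, and the difference was 0.06 ± 0.10 (SE). EIF4B, the other helper, differed by 0.01 ± 0.08 (SE), and by 0.32 and 0.01 on its other probe sets.

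The cap-binding proteins and their transporter also had 0 of 4 calls. EIF4E, the cap-binding protein itself, differed by -0.01 with a 95% interval from -0.23 to 0.22. EIF4E3, a divergent cap-binding relative, had 7.45, 7.67 and 7.92 in siGNE cells, against 7.73, 7.74 and 8.11 in control cells. It was lower in all pairs, with overlapping groups, by -0.18 ± 0.09 (SE, limma adjusted p = 0.244), and its other probe sets gave -0.52 and -0.97. EIF4ENIF1, which carries eIF4E into the nucleus and to sites of mRNA decay, had 7.72, 7.86 and 7.74 in siGNE cells, against 7.77, 7.51 and 7.68 in control cells. Its groups overlapped and its pairs differed in sign (0.12 ± 0.11, SE). EIF4E2, which holds caps without starting translation, differed by -0.09 and was lowest on the number 3 array of both groups (10.35 in siGNE cells and 10.52 in control cells).

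EIF4G1, the scaffold that joins eIF4E, eIF4A, eIF3 and the poly(A)-binding protein, had 11.69, 11.46 and 12.24 in siGNE cells, against 12.18, 11.78 and 12.57 in control cells. It was lower in every pair by similar amounts (-0.49, -0.32 and -0.33), while the number 3 arrays were the highest of both groups and the groups overlapped. The difference was -0.38 ± 0.09 (SE), or 76.7% of the control level, and did not pass the test (limma adjusted p = 0.0629). Its other probe set was also lower in every pair, by a smaller -0.20 (limma adjusted p = 0.197). EIF4G2, a relative that lacks the eIF4E-binding part, had 14.45, 14.36 and 14.35 in siGNE cells, against 14.57, 14.40 and 14.32 in control cells. Its groups overlapped and it differed by -0.04 ± 0.09 (SE).

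Of the late factors, EIF5A2 had the lowest difference of the 40. EIF5A2, an isoform of eIF5A that is amplified in some carcinomas, had 5.29, 5.48 and 4.67 in siGNE cells, against 6.63, 5.77 and 5.64 in control cells. All siGNE arrays lay below all control arrays, by -0.87 ± 0.21 (SE), that is 54.9% of the control level, with pairs of -1.33, -0.29 and -0.97 (limma adjusted p = 0.0691). Its other probe sets gave -0.37 and -0.16. EIF5A, the common isoform, whose hypusine residue lets the ribosome pass difficult peptide bonds, had 12.98, 13.63 and 14.53 in siGNE cells, against 13.89, 13.02 and 14.55 in control cells. It was higher in pair 2 (0.61), lower in pair 1 (-0.91) and near 0 in pair 3 (-0.02), and its 95% interval, from -0.87 to 0.66, was the widest of the 40.

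EIF5B, the GTPase that joins the large subunit, had 10.22, 9.75 and 10.40 in siGNE cells, against 10.01, 9.73 and 10.23 in control cells. The groups overlapped, although the 5 tested probe sets of EIF5B were all higher, from 0.06 to 0.34, and the difference was 0.13 ± 0.09 (SE, limma adjusted p = 0.372). EIF6, which keeps the large subunit from joining too early, was higher in all pairs by 0.06 ± 0.08 (SE).

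Differences were also read from the other probe sets of the same genes. Of the 40 genes, 24 had more than 1 tested probe set, with 49 probe sets beside those used. Of the 49, 9 (in 8 genes) had the opposite sign, among them a probe set of EIF3H at -0.67 (0.16 for the one used), one of EIF1AX at -0.44 (0.11 for the one used) and one of EIF1 at -0.39 (0.21 for the one used). Of the 49, 6 passed the test in limma with the block, all higher and all in EIF1 (3, at 0.44 to 0.45), EIF5 (2, at 0.45 and 0.50) and EIF3J (1, at 0.53), and 4 of the 6 are cross-hybridising _x_at probe sets. The 3 of EIF1 read almost alike on every array (14.52, 14.55 and 14.57 on the first siGNE array, against 14.04, 14.06 and 14.10 on the first control array), so they may not be separate measurements. Over all 89 probe sets of the 40 genes 7 were called (7.87%), 6 higher and 1 lower, against 9.49% of all probe sets (4.13% higher and 5.35% lower).

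**Figure D4:**
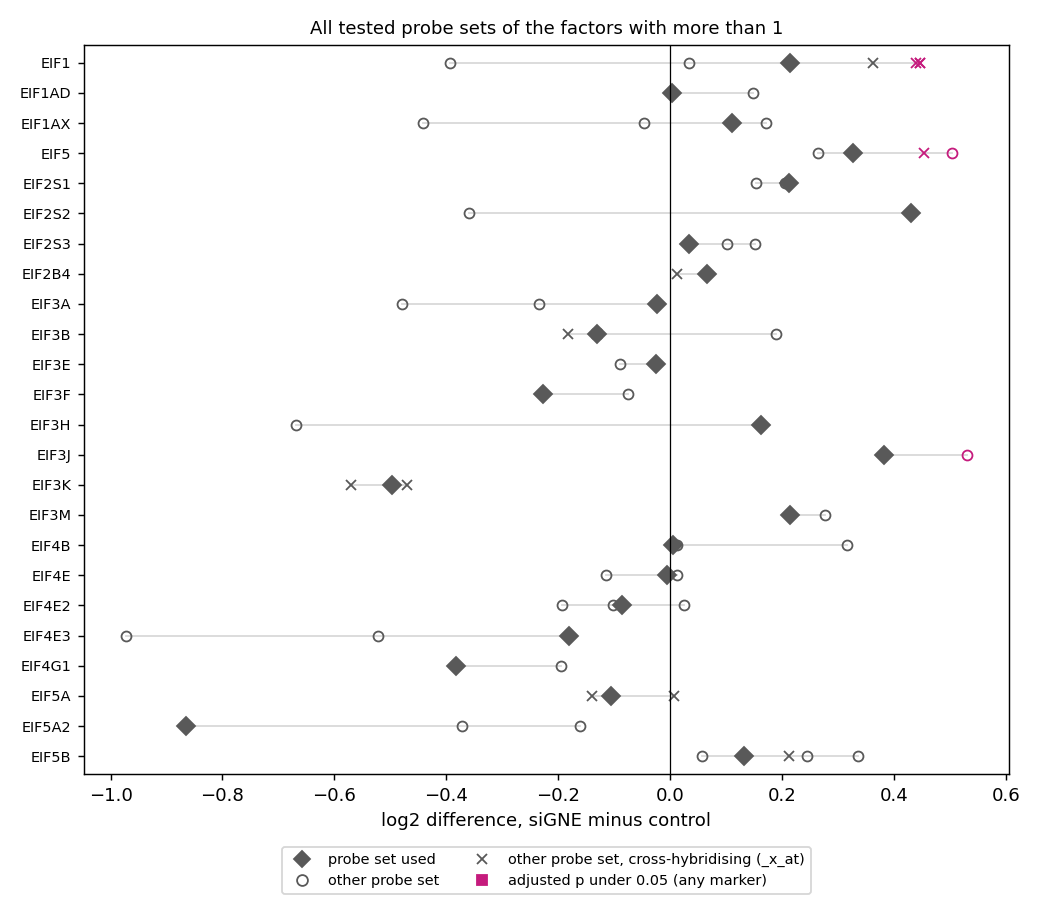
Differences of all tested probe sets of the 24 initiation factor genes with more than 1, siGNE minus control on the log2 scale (x axis). Diamonds are the probe sets used, circles and crosses the others, and magenta marks an adjusted p under 0.05. The 3 probe sets of EIF3K lie between -0.57 and -0.47, and those of EIF2S2 and EIF3H lie on both sides of 0.

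Genes that act on or beside the initiation factors were read from 7 lists. In all, 8 of their 105 tested genes (7.62%) were called in limma with the block, against 9.85% of all genes (4.12% higher and 5.74% lower), and 0 without it, against 0.046%. Among 9 helpers at the start site, MCTS1 fell and 8 were not called. MCTS1, which with DENR recycles ribosomes and restarts them after short upstream frames, and whose complex with DENR resembles EIF2D in its domains, had 10.76, 11.04 and 10.44 in siGNE cells, against 11.45, 11.48 and 10.99 in control cells. It was lower in every pair by -0.56 ± 0.09 (SE, limma adjusted p = 0.0385), with overlapping groups. DENR, its partner, had 12.67, 12.67 and 12.58 in siGNE cells, against 12.62, 12.50 and 12.48 in control cells, a difference of 0.10 ± 0.08 (SE, limma adjusted p = 0.448).

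Among 16 regulators of the cap complex and of poly(A)-binding protein, 2 rose, 2 fell and 12 were not called, a share of 25%, against 9.85% of all genes. EIF4EBP1, which binds eIF4E and keeps it from EIF4G1 when mTORC1 is inactive, had 11.58, 11.12 and 10.67 in siGNE cells, against 10.66, 10.43 and 9.84 in control cells. All siGNE arrays were above all control arrays, by 0.81 ± 0.09 (SE, limma adjusted p = 0.0256). MKNK2, a kinase that phosphorylates eIF4E while docked on eIF4G, had 12.64, 12.61 and 12.09 in siGNE cells, against 12.06, 11.96 and 11.26 in control cells. It rose by 0.68 ± 0.09 (SE, limma adjusted p = 0.0299), without overlap of the groups.

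The regulators that fell were both inhibitors of poly(A)-binding protein. PAIP2 differed by -0.45 ± 0.09 (SE, limma adjusted p = 0.0467) and PAIP2B by -0.65 ± 0.13 (SE, limma adjusted p = 0.0498). The 8 elongation factors and hypusine enzymes had 2 lower calls, against 5.74% of all genes called lower. EEF2K, the kinase that inhibits eEF2, fell by 0.56 (limma adjusted p = 0.0395). EEF1A1, which brings aminoacyl-tRNA to the ribosome, fell by 0.49 on the probe set of its own (limma adjusted p = 0.0385). Its values were 8.67, 9.19 and 8.83 in siGNE cells, against 9.17, 9.73 and 9.27 in control cells. EEF1A2 in the same list had means of 14.64 in siGNE cells and 14.70 in control cells. Whether the dimmer EEF1A1 probe set reads the main EEF1A1 transcript was not tested.

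The other 4 lists held 1 call. Of 9 eIF2alpha kinases and phosphatase subunits 0 were called, with PPP1R15A, the stress-induced subunit that directs eIF2alpha dephosphorylation, at 0.43 ± 0.10 (SE, limma adjusted p = 0.0597) and PPP1R15B, its constitutive relative, at 0.27. Of 5 termination factors 0 were called, with a median of 0.27 and 4 of 5 higher in every pair (27.0% of all genes were), among them ETF1, which reads stop codons, at 0.28 and GSPT1, its GTPase partner, at 0.27. Of 5 mitochondrial translation factors 0 were called, with a median of -0.05. Of 53 cytosolic ribosomal proteins RPL39L, a paralogue of RPL39, fell (-0.68, limma adjusted p = 0.0476) and 0 rose, with a median of -0.03.

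**Figure D5:**
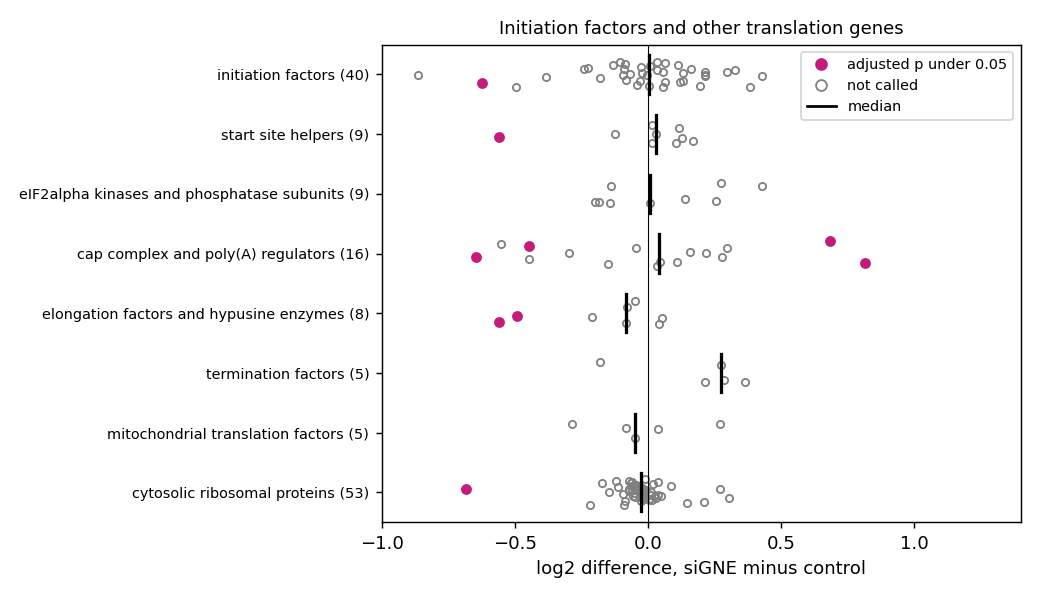
Differences of the initiation factors and of the 7 other lists, siGNE minus control on the log2 scale (x axis), 1 point per gene. Filled points passed an adjusted p under 0.05, and black bars are medians. EIF4EBP1 (0.81) and MKNK2 (0.68) lie to the right of all initiation factors, and EIF5A2 (-0.87) to the left of all genes shown.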

How the data were processed

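Total RNA of 6 Capan-1 cultures (3 siGNE, 3 control) was hybridised to 1-colour Affymetrix arrays. The deposited values are log2 expression values of 54675 probe sets made by the authors with GCRMA, per the submitters' processing notes. They were used as deposited, with array medians of 2.96 to 3.02. Scanner files were not used here, so no detection call was available.

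Gene names came from the platform's annotation table (41097 probe sets with 1 gene, 1801 with several, 11777 with none). After 62 control probe sets were removed, 22085 with a mean above 4 were tested with limma 3.58.1 (R 4.3.3), siGNE minus control with the replicate number as a block, and p-values were adjusted by Benjamini-Hochberg over all of them. Calls were made at an adjusted p under 0.05. The rule that defined the members also set the pairing by the number in the titles. As a check, same-numbered arrays deviated together from their group means (r = 0.58, 0.71 and 0.83), while arrays of different number gave -0.64 to 0.17. Deviations from a group mean cancel out within the group, so part of this contrast arises by construction. The block leaves 2 residual degrees of freedom.

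Values on every array are given for members called with or without the block and for up to 2 members with the smallest p in each role group, and, of each other list, up to 4 genes with the smallest p were eligible to be named. Other values were chosen after they were seen: EIF3F, EIF5A and EIF3J-DT with values on every array, and DENR. The members and lists were chosen with earlier results of these data known. The fit was also run on simulated data, but with differences larger than that of any member. That run therefore does not show how well differences of the members' size are found. Alternatives to the block, filter, scaling, variance model, probe set choice and threshold, and fits without each pair, were run. The small number of arrays limits the precision, and standard errors of the 40 genes ran from 0.08 to 0.29.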

Additional observations from a re-analysis of the deposited data

How the results depend on the processing

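The initiation factors called numbered 1 (0 higher, 1 lower) in limma with the block. They numbered 0 without the replicate block, where 3 (7.5%) had an unadjusted p under 0.05, against 14.6% of all probe sets. With no filter on dim probe sets they also numbered 0. There 14 (35%) had an unadjusted p under 0.05, against 13.1% of all 54613 probe sets, dim ones included. Leaving out pair 1, 2 or 3 gave 0 to 0, with 7, 5 and 5 (17.5%, 12.5% and 12.5%) at an unadjusted p under 0.05, against 25%, 22.7% and 22.8% of all probe sets. With no filter and without any 1 pair 0 of all probe sets were called, so these zeros are not particular to the members. A mean above 6 gave 5 of 39 (12.8%; 2 higher, 3 lower: EIF2S2, EIF3J, and EIF2D, EIF3K, EIF4G1), against 19.0% of all genes. Median centring gave 2 (1 higher), against 12.5%. An intensity trend gave 9 (22.5%; 5 higher, 4 lower), against 15.7%. The mean of a gene's probe sets gave 3 (7.5%, with EIF3J and EIF5 higher), against 12.1% of the 13503 rows of that fit. Those rows include probe sets of no single gene, left as they were. The second probe set gave 2 of 24 (8.33%, with 2 higher and 0 lower), against 9.49% of all probe sets. An adjusted p under 0.1 gave 7 (3 higher, 4 lower), against 22.5% of all genes. The cause of these changes was not tested, beyond the smaller number of arrays or probe sets. The median difference was 0.047 after median centring and -0.019 to 0.071 with a pair left out. The call of GNE (-1.88) was lost without the block, and the other lists' 8 calls became 0 without it and 13 at an adjusted p under 0.1. Of 583 values of single genes under alternatives, 555 stayed on the same side of the threshold, 26 of them (in 16 genes not called in limma with the block) with the opposite sign, 23 passed it newly, 5 (all EIF2D, -0.75 to -0.55) lost it and 0 changed the sign of a call.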

Other observations

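Probe sets that the rule left out because they match several genes covered part of the missing eIF4A and eIF3 members. The 3 probe sets shared by EIF3C and EIF3CL, near-identical copies of the eIF3c core subunit that these arrays cannot tell apart, gave differences of 0.42, 0.32 and 0.38 on the log2 scale (limma adjusted p = 0.0576, 0.0753 and 0.0588). All were higher in siGNE cells in every pair, and 0 of the 3 passed the test. The brightest of them read 13.85, 13.74 and 13.39 in siGNE cells, against 13.49, 13.40 and 13.12 in control cells.

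EIF4A1, the main RNA helicase of initiation, shares its probe sets with small nucleolar RNAs of its introns. They gave 0.07, 0.04 and -0.26. EIF4A2, its paralogue, gave -0.01 and 0.04 on shared probe sets. The probe set of EIF4A2 that gave -0.01 read 5.60, 7.31 and 8.94 in siGNE cells, against 5.61, 7.10 and 9.17 in control cells, so arrays of the same number read alike while the numbers differed widely.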
